A study of Mus musculus with 6 samples.

Results

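The 38 nuclear genes described here are the protein-coding genes of the deposited annotation whose symbol starts with Nduf, leaving out the Ndufaf assembly factors. They were drawn from 52636 genes, of which 22027 are protein-coding, and were described in optic nerve of mice given a mutant human ND6 (hND6, 3 libraries) or mCherry (3 libraries). Complex I, or NADH:ubiquinone oxidoreductase, is the entry point of electrons from NADH into the mitochondrial respiratory chain. Its hydrophilic arm holds an N module that oxidises NADH and a Q module that reduces ubiquinone, and its membrane arm pumps protons. A small core conserved from bacteria carries out this chemistry. Mammals share its coding between the nuclear Ndufs and Ndufv genes and the mitochondrial ND genes, and surround it with supernumerary, or accessory, subunits coded in the nucleus. Some mutations of ND6 are a cause of Leber hereditary optic neuropathy, in which retinal ganglion cells and their axons in the optic nerve are lost.

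The hND6 group is labelled with the treatment Mutant human ND6T14484C and the control group with mCherry, a red fluorescent protein. The protocol text describes lentivirus injected into the eye with the same wording for both groups. Strain, age, the time after injection and the promoter of the vector are not given in the sources used here. The labels also leave unsaid whether each library is a separate animal. The p-values therefore rest on the scatter among the 6 libraries, part of which may be technical. RNA was total RNA after ribosomal depletion, read with a stranded kit, and the labels name optic nerve as the source. Markers of oligodendrocytes, the myelinating cells of this nerve, summed to 3720 to 6143 FPKM (fragments per kilobase of exon, scaled by the mapped reads of the library) over the 6 libraries. The delivered human gene was not analysed here.

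Reads assigned to genes ranged from 20253637 to 34758873 per library. One control library, mCherry 3, stood apart on the first principal component, which held 46.9% of the variance over all genes. Its 4 forebrain neuron markers summed to 335.4 FPKM against 23.8 and 13.9 in the other mCherry libraries, and 126.1, 16.5 and 27.4 in hND6 1 to 3, and each of the 4 was highest in it. Its oligodendrocyte markers had the lowest sum, 3720 FPKM. In hND6 2 the 4 photoreceptor markers summed to 167.1 FPKM, against 0.624 to 4.99 in the other 5 libraries. Erythroid markers summed to 176 to 459.5 FPKM in mCherry and 1348 to 2569 in hND6, and plasma cell markers to 0.539 to 2.1 and 27.4 to 64.1. The 3 microglia markers summed to 49.6 to 61.9 FPKM in mCherry and 68.8 to 83.6 in hND6 without overlap, and the 3 astrocyte markers to 1102 to 1526 and 1499 to 1869 with overlap. Pericyte markers spanned 21.9 to 31.8 FPKM over all libraries, and eye muscle markers 2.93 to 5.86 with the muscle creatine kinase Ckm at 0.0601 or less. The part of these differences in the results below was not tested. The optic nerve was read as a bulk sample, so fewer cells of a type and less RNA per cell cannot be told apart.

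By textbook role, 7 of the 38 genes code for core subunits (among them Ndufs1, Ndufs3, Ndufs7, Ndufs8, Ndufv1 and Ndufv2) and 29 for accessory ones. Ndufa4, named as a complex I subunit and now assigned to complex IV, and its paralogue Ndufa4l2 make up the rest. Of the 38, 37 averaged at least 0.5 FPKM and entered the test among 16157 genes. The exception was Ndufa13, a membrane-crossing subunit also known as GRIM-19, which was listed at 0 in all 6 libraries. Its locus on GRCm38 (chromosome 8, 69894180 to 69902558) lies 100% within the same-strand gene Yjefn3 in GENCODE M21. By the positions in the deposited annotation, no same-strand gene overlaps Ndufa13. Yjefn3 averaged 6.28 FPKM, and the labels do not say how reads in overlapping genes were counted. The reason for the 0 was not tested, and the 0 is not read as a lack of Ndufa13 RNA. The gene for the accessory subunit B1 carries another symbol and a non-coding class in the deposited annotation and therefore fell outside the set. It stood at 17.6 ± 4.31 FPKM (SD, n = 3) in mCherry and 19.1 ± 0.807 in hND6.

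The promoters of 4 genes that stand for the pattern below are shown, taken from RefSeq on GRCm38.p6. Each covers 250 bases before the transcript start and 50 after it, 5′ to 3′ on the gene's strand, with motif matches in capitals. Ndufs7 (chr10:80249199-80249498, plus strand) was the member of smallest p, and Ndufs4 (chr13:114388045-114388344, minus strand) the one of lowest fold change. Ndufb7 (chr8:83566508-83566807, plus strand) was the accessory gene of smallest p, and Ndufs6 (chr13:73328433-73328732, minus strand) holds matches to 2 motifs. The capitals mark a YY1 match in Ndufs7 and Ndufs4, an ETS/GABP match in Ndufb7, and an NRF-1 and then a YY1 match in Ndufs6.
Ndufs7: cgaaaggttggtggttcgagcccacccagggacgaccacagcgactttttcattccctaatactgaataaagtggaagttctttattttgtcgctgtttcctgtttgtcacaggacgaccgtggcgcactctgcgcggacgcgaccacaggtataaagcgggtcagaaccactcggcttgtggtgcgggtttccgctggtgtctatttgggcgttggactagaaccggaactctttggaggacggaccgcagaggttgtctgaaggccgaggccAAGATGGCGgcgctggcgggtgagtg
Ndufs4: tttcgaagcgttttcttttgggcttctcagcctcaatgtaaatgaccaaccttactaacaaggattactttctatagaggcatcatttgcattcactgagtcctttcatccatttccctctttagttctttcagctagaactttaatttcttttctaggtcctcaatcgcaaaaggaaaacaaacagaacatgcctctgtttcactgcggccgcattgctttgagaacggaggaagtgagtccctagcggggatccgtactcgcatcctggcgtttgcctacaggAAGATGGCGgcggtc
Ndufb7: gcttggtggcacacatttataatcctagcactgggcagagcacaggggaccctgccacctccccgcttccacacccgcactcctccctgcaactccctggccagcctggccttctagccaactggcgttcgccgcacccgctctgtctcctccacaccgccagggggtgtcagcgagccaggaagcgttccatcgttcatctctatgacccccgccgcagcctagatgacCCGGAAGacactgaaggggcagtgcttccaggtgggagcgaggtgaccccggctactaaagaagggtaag
Ndufs6: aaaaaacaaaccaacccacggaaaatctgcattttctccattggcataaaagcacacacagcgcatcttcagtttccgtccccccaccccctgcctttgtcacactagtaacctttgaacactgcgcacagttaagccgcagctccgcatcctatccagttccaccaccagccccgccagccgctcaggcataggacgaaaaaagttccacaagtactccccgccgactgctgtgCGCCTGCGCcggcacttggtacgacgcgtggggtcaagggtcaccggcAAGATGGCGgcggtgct
The motifs searched on both strands were NRF-1 (GCGCANGCG), ETS/GABP (CCGGAAG), YY1 (AANATGGCG) and CRE (TGACGTCA), factors and elements known from nuclear genes of the respiratory chain. Promoters of 33 of the 38 members were in the table. Ndufa2, Ndufa4l2, Ndufb9 and Ndufs1 were among the 5 missing from it. At least 1 of the 4 motifs was found in 20 of the 33, or 60.6%, against 24.3% of 17491 protein-coding genes. YY1 matched in 7 members (Ndufa7, Ndufa9, Ndufb11, Ndufc1, Ndufs4, Ndufs6 and Ndufs7), which is 21.2% against 3.64% of all genes. NRF-1 matched in 8 (24.2% against 9.63%), CRE in 3 (9.09% against 2.54%) and ETS/GABP in 4 (12.1% against 12.9%). No match of one motif overlapped a match of another in the members, and Ndufa11 held overlapping NRF-1 matches. A match is a run of letters and says nothing of binding. The YY1 match lay just after the start both in Ndufs7, which was higher in every hND6 library, and in Ndufs4, which was lower in every one. The members with a YY1 match had a median log2 fold change of 0.306 and those without one 0.23.

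In the comparison of hND6 with mCherry, most complex I genes stood slightly higher in hND6, and none passed the test. Of 37 genes tested, 35 had a log2 fold change above 0, against 48.6% of all genes tested. Their median was 0.25, against -0.01 for all genes, with a range of -0.21 (Ndufs4) to 0.62 (Ndufa2) on the log2(FPKM + 0.5) scale. Limma's moderated test with Benjamini-Hochberg adjustment over all genes called 0 members higher and 0 lower, with adjusted p-values between 0.168 and 0.941. The same test called 0.0433% of all genes higher and 0% lower. At an unadjusted p under 0.05 the counts were 11 members higher, against 9.11% of all genes, and 1 lower, against 6.05%. Limma's voom on the recovered reads also called 0 members. At an unadjusted p under 0.05 it had 10 members higher, against 1466 of all 16157 genes. In 11 members every hND6 library lay above every mCherry library, against 12.6% of all genes. These were Ndufa3, Ndufa7, Ndufb3, Ndufb7, Ndufb9, Ndufb10, Ndufb11, Ndufc2, Ndufs6, Ndufs7 and Ndufv3. Ndufs4 was the 1 member with the reverse order, against 10.2% of all genes.

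**Figure D1:**
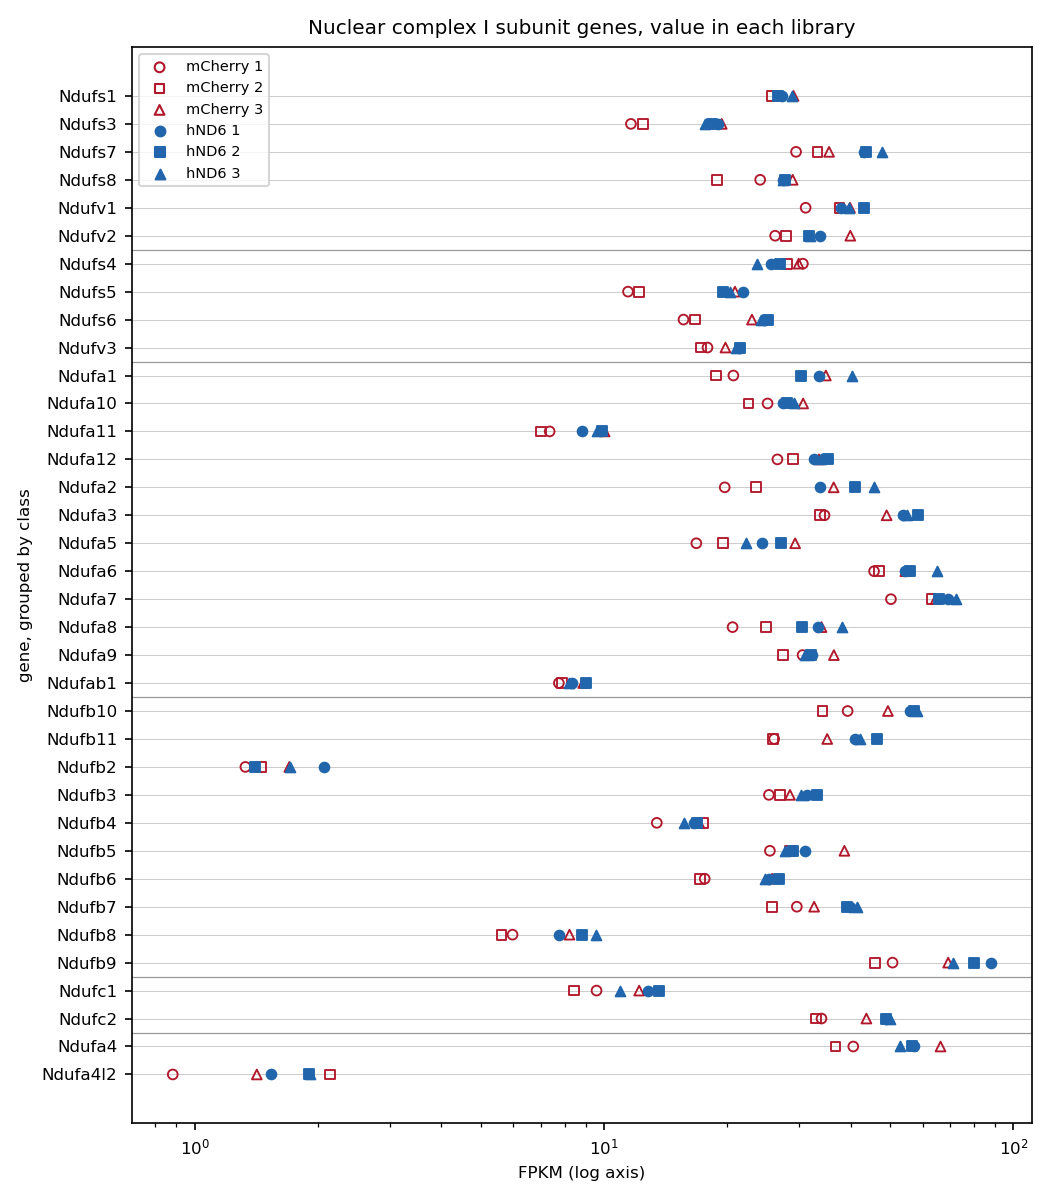
FPKM of 36 of the 37 tested genes in each library on a log axis, grouped by class, with open red symbols for mCherry and filled blue symbols for hND6, 1 symbol shape per replicate number. In most rows mCherry 1 and 2 sit to the left and mCherry 3 (open triangle) sits with or near the hND6 libraries, while in the Ndufs4 row the hND6 symbols lie to the left.

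The mCherry libraries did not behave alike for these genes. Summed over the members, mCherry 1 and 2 held 887.8 and 903.5 FPKM, mCherry 3 held 1188, and hND6 1 to 3 held 1202, 1219 and 1221. Thus mCherry 3 lay close to the hND6 range and far from its own group. It was the highest mCherry library for 34 of the 37 genes, reached or passed the lowest hND6 library for 25 and was the highest of all 6 libraries for 10. Over all 16157 genes tested these counts were 5558, 10054 and 3324, so the counts of 25 and 10 lay near the shares over all genes. With mCherry 3 left out of the fit, the median fold change of the members was 0.37 and 8 genes passed the threshold. They were Ndufa3, Ndufb6, Ndufb10, Ndufb11, Ndufc2, Ndufs3, Ndufs5 and Ndufs6, with adjusted p-values from limma of 0.0448 to 0.05, and no member passed as lower. Over all genes that fit called 0.718% higher and 0.0928% lower. In it 31 members lay above both remaining mCherry libraries in every hND6 library, against 19.9% of all genes, and Ndufs4 lay below both, against 21.1%. The 8 calls rest on leaving out 1 control library, the one with the highest sum of neuron markers, and whether neuronal RNA plays a part was not tested.

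**Figure D2:**
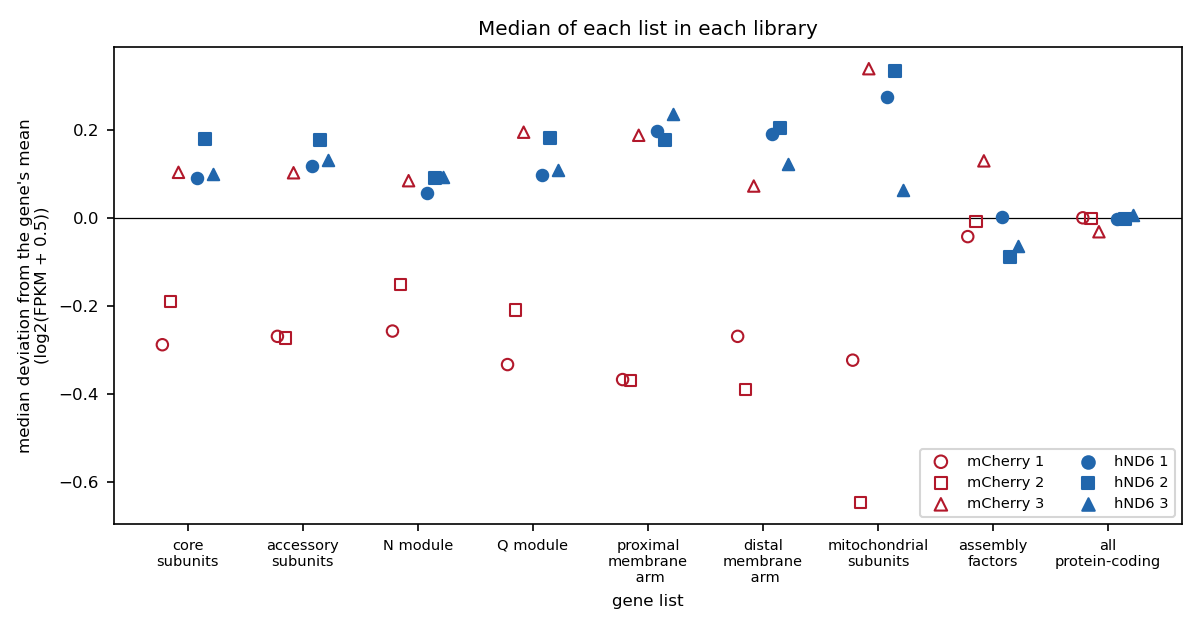
Median, over each gene list, of the deviation of log2(FPKM + 0.5) from the gene's mean over the 6 libraries, 1 symbol per library (open red mCherry, filled blue hND6). For the core and accessory subunits and for each module mCherry 1 and 2 lie below 0 and mCherry 3 lies above 0 with the hND6 libraries, while all protein-coding genes stay near 0.

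Among the core subunits, all 7 had a fold change above 0 and a median of 0.22, and only Ndufs7 separated the groups, 1 of 7 beside 12.6% of all genes. The core median was 0.36 without mCherry 3 and 0.07 with each library scaled to the same sum of FPKM. Ndufs7 (chromosome 10, 80249121 to 80256793) codes for the subunit that carries the last iron-sulfur cluster before ubiquinone. It stood at 29.4, 33.2 and 35.4 FPKM in mCherry 1 to 3 and at 43.0, 43.6 and 47.8 in hND6 1 to 3. No library of one group reached the other, and the highest value was in hND6 3. The mean ratio was 1.37, with a log2 fold change of 0.45 ± 0.09 (SE) and an adjusted p of 0.168 by limma.

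In Ndufs3 and Ndufs8, core genes of the Q module, mCherry 3 lay above the hND6 libraries. Ndufs3, one of the first subunits to assemble, stood at 11.6, 12.4 and 19.4 FPKM in mCherry and 19.0, 18.3 and 17.6 in hND6. Its mCherry 3 value was the highest of all, and the fold change was 0.36 ± 0.19 with all libraries (limma adjusted p of 0.415) and 0.59 without mCherry 3. Ndufs3 has a processed pseudogene copy, Gm12251, at 98.6% identity and 1.88 FPKM, so its count is uncertain. Ndufs8, which carries iron-sulfur clusters on the way to Ndufs7, stood at 24.1, 18.8 and 28.9 FPKM in mCherry and 27.4, 27.7 and 27.3 in hND6. The hND6 libraries were within a narrow band while mCherry spread to both sides of it (fold change 0.22 ± 0.15).

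The 3 core subunits of the N module differed least. Ndufv1, which binds NADH and the flavin, stood at 31.1, 37.6 and 39.9 FPKM in mCherry and 38.0, 43.2 and 39.6 in hND6 (fold change 0.16 ± 0.11). Its partner Ndufv2 stood at 26.2, 27.8 and 39.9 FPKM in mCherry and 33.6, 31.7 and 31.9 in hND6 (0.07 ± 0.16). In both genes mCherry 3 overlapped or exceeded the hND6 libraries. Ndufs1, the largest subunit of the hydrophilic arm and a carrier of several iron-sulfur clusters, stood at 26.9, 25.6 and 29.0 FPKM in mCherry and 27.2, 26.6 and 28.8 in hND6. The libraries of the groups interleaved, and the fold change of 0.02 ± 0.08 was among the 3 lowest of the set, with a limma adjusted p of 0.929. The core genes thus ran from 0.02 for Ndufs1 to 0.45 for Ndufs7. These are the lowest and the highest of the core genes, and the gap between them was not tested.

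The 4 accessory genes that carry an Ndufs or Ndufv symbol held both directions. Ndufs4 (chromosome 13, 114287795 to 114388258) codes for a subunit at the junction of the N and Q modules whose loss in mice gives an encephalopathy like Leigh syndrome. It stood at 30.6, 27.9 and 29.9 FPKM in mCherry and 25.6, 26.9 and 23.6 in hND6. Every hND6 library lay below every mCherry library, mCherry 3 included, and the log2 fold change was -0.21 ± 0.08 with a limma adjusted p of 0.301. Without mCherry 3 the value was -0.20. Over the 6 libraries the values of Ndufs4 had a median correlation of -0.563 with those of the other members, the lowest in the set, where the median over all 666 pairs was 0.767 and 626 pairs were positive. These correlations share the same 6 libraries and include the difference between the groups. Ndufs6, a zinc-binding subunit, averaged a fold change of 0.43 ± 0.15, Ndufs5 0.51 ± 0.22 and Ndufv3, a partner of Ndufv1, 0.21 ± 0.08. Ndufs5 and Ndufs6 also have processed pseudogenes, at 99.4% and 96.6% identity, and are uncertain to that extent.

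The distal membrane arm, read here from its nuclear Ndufb genes only, held some of the largest differences. Ndufb7 (chromosome 8, 83566671 to 83571626), a subunit on the side of the intermembrane space, stood at 29.6, 25.7 and 32.6 FPKM in mCherry and 39.8, 39.2 and 41.4 in hND6. The groups were apart in all libraries, with a mean ratio of 1.37, a log2 fold change of 0.45 ± 0.10 and a limma adjusted p of 0.178. Ndufb11 (X chromosome, 20615326 to 20617619), whose loss in humans causes a disease of skin and eye, stood at 26.0, 25.9 and 35.1 FPKM in mCherry and 41.0, 46.3 and 42.1 in hND6. Its mCherry 3 value lay between the other mCherry libraries and the hND6 range. The mean ratio was 1.49 and the fold change 0.58 ± 0.14 (limma adjusted p of 0.179). Without mCherry 3 the fold change was 0.72 and the limma adjusted p 0.0448. A processed pseudogene matches Ndufb11 at 96.9% identity and averaged 0.172 FPKM, so the count of Ndufb11 is uncertain to that extent.

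Ndufb10, another subunit facing the intermembrane space, stood at 39.3, 34.2 and 49.4 FPKM in mCherry and 55.9, 57.0 and 58.0 in hND6, with no overlap between the groups. Its fold change was 0.49 ± 0.14 and its limma adjusted p 0.216. Ndufb9, which docks an acyl carrier protein onto the membrane arm, was the most abundant member per kilobase of exon. It stood at 50.7, 46.0 and 69.3 FPKM in mCherry and 88.2, 80.2 and 71.3 in hND6. The lowest hND6 library, hND6 3, was only just above mCherry 3 (fold change 0.54 ± 0.17, limma adjusted p of 0.248). In GENCODE M21 a same-strand gene, Gm49356, covers 62.9% of the Ndufb9 span, but no same-strand gene overlaps Ndufb9 in the deposited annotation.

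At the other end of this arm, Ndufb5 stood at 25.4, 28.4 and 38.6 FPKM in mCherry and 30.9, 29.0 and 27.7 in hND6. The highest library was mCherry 3, and the fold change was -0.05 ± 0.16 with it and 0.12 without it. Ndufb3 (0.23 ± 0.08), Ndufb6 (0.36 ± 0.16) and Ndufb8 (0.39 ± 0.16) were higher in hND6 on average. Ndufb2 (0.15 ± 0.18) and Ndufb4 (0.04 ± 0.12) had differences smaller than their SE. Over the 10 distal genes the median was 0.37, and in 5 of them every hND6 library lay above every mCherry library, beside 12.6% of all genes.

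The proximal membrane arm, next to the ubiquinone site, had a median fold change of 0.40 over 8 genes tested. Ndufc2 stood at 34.0, 33.0 and 43.7 FPKM in mCherry and 48.7, 48.9 and 49.96 in hND6, so the groups did not overlap and the hND6 libraries were nearly equal. Its fold change was 0.42 ± 0.12 with a limma adjusted p of 0.216. Ndufa3 stood at 34.5, 33.6 and 49.0 FPKM in mCherry and 53.8, 58.4 and 55.0 in hND6, again without overlap (0.53 ± 0.15, limma adjusted p of 0.228). The X-linked Ndufa1 had a similar fold change of 0.52 with a wider error of 0.24, since mCherry 3 reached the hND6 range. Ndufa8 (0.38 ± 0.19), Ndufc1 (0.31 ± 0.16), Ndufa11 (0.22 ± 0.15) and Ndufa10 (0.12 ± 0.12), a subunit with the fold of a nucleoside kinase, overlapped between the groups.

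Accessory subunits of the hydrophilic arm covered the whole range. Ndufa2, a small thioredoxin-like subunit of the N module, had the largest fold change of the set. It stood at 19.7, 23.5 and 36.4 FPKM in mCherry and 33.6, 40.9 and 45.6 in hND6. The spread within each group was wide, mCherry 3 passed hND6 1, and the fold change was 0.62 ± 0.24 with a limma adjusted p of 0.299. Ndufa7, the second most abundant member, stood at 50.2, 63.1 and 64.6 FPKM in mCherry and 69.4, 65.8 and 72.2 in hND6. The lowest hND6 value lay just above the highest mCherry value (0.23 ± 0.11). Ndufa6, which binds an acyl carrier protein on the hydrophilic arm, stood at 45.6, 47.0 and 54.4 FPKM in mCherry and 54.4, 55.8 and 65.1 in hND6, and mCherry 3 and hND6 1 were level. Ndufa12 (0.19 ± 0.10), Ndufa5 (0.20 ± 0.21) and Ndufa9 (0.02 ± 0.11), a nucleotide-binding subunit of the Q module, overlapped, as did the acyl carrier protein Ndufab1 (0.06 ± 0.10).

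**Figure D3:**
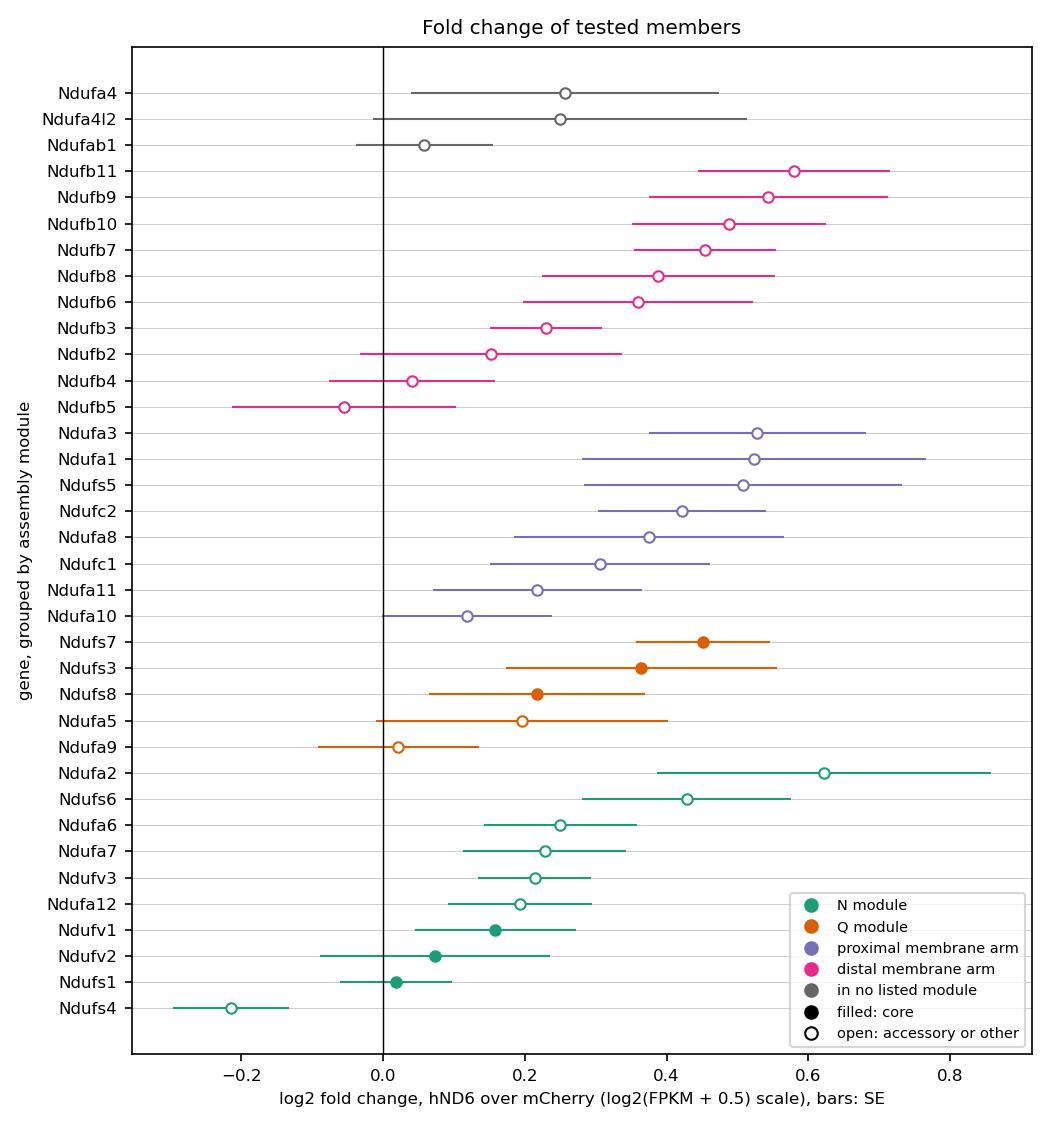
Log2 fold change of hND6 over mCherry with its SE for 36 of the 37 tested genes, coloured by assembly module and filled for core subunits. The lowest value, -0.21, is Ndufs4 in the N module, and the values of the proximal and distal membrane arms reach from -0.05 to 0.58.

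Ndufa4 and Ndufa4l2 were set apart because neither is a complex I subunit in current models. Ndufa4 stood at 40.6, 36.7 and 66.4 FPKM in mCherry and 57.0, 56.4 and 52.9 in hND6. Its mCherry 3 value was the highest of all libraries, and the fold change was 0.26 ± 0.22 with it and 0.51 without it. Ndufa4l2, known as a gene induced by low oxygen, was the least read of the tested genes with 25 to 66 reads per library. It stood at 0.882, 2.13 and 1.42 FPKM in mCherry and 1.53, 1.90 and 1.91 in hND6, with mCherry libraries both lowest and highest. Its fold change was 0.25 ± 0.26, with a limma adjusted p of 0.695.

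Compared by class, core and accessory genes differed little in the median, 0.22 over 7 and 0.28 over 28. By symbol the 11 Ndufs and Ndufv genes had a median of 0.22 and the 26 Ndufa, Ndufb and Ndufc genes 0.25. By family the 14 tested Ndufa genes had 0.24, the 10 Ndufb genes 0.37 and the Ndufc pair 0.36. By module the N module had 0.20, the Q module 0.24, the proximal arm 0.40 and the distal arm 0.37. With each library's trend on gene span removed, the module medians were 0.08, 0.12, 0.23 and 0.19 in the same order. The summed FPKM of accessory over core genes was 3.52, 3.40 and 3.61 in mCherry and 3.80, 3.75 and 3.78 in hND6, so these ratios did not overlap. The sum of the distal arm over that of the N module was 0.808, 0.725 and 0.827 in mCherry and 0.941, 0.909 and 0.836 in hND6. These ratios do not depend on the scaling of a library and are descriptions, with no test. The part of gene span in them was not tested. Ndufb11 over Ndufs4 was 0.851, 0.926 and 1.18 in mCherry and 1.61, 1.73 and 1.79 in hND6. Both genes were picked by their fold changes in these libraries, and each alone separated the groups, in opposite directions. The separation of their ratio follows from that choice.

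The order of the fold changes followed the length of the genes on the chromosome. Across the 37 genes the rank correlation of fold change with gene span was -0.722, and across 13678 protein-coding genes it was -0.538. With annotated exon length the values were -0.668 and -0.338, so span and exon length were not told apart in the members. Genes of one library share its depth and RNA, so these values are descriptions. The median span was 7800 bases in the members and 24000 in all protein-coding genes. The 11 members shorter than 5 kb (kilobases) had a median fold change of 0.49, against 0.28 for all protein-coding genes of that length. For the 20 members of 5 to 20 kb the medians were 0.24 and 0.09, and for the 6 longest, of 20 kb or more, 0.05 and -0.11. Ndufs4, with 100464 bases the longest member, was also the lowest, and Ndufa2 and Ndufb11, with 2226 and 2294 bases, were the highest. The shortest member, Ndufa4l2 with 2188 bases, had a fold change of 0.25, and of -0.10 with the trend on span removed. With each library's trend on gene span removed, 31 of 37 members were above 0, against 6891 of all 16157 genes tested. The medians were 0.14 for the members and -0.04 for all genes, with 0.05 for the core and 0.15 for the accessory genes. The part of RNA quality in this trend was not tested.

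**Figure D4:**
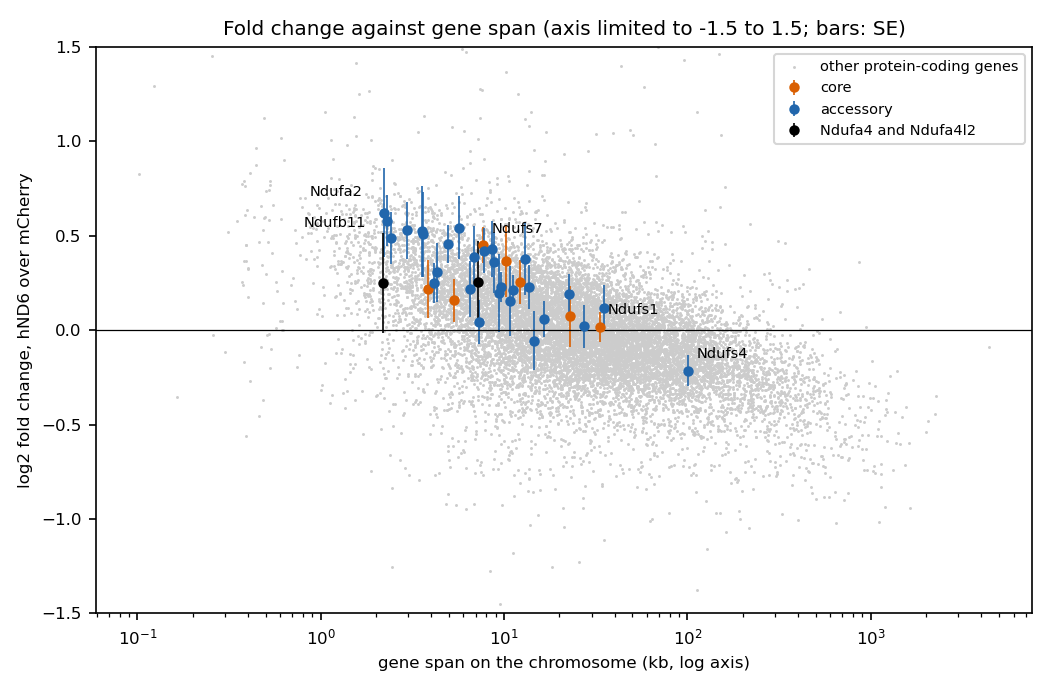
Log2 fold change of hND6 over mCherry against gene span in kilobases on a log axis, with grey points for other protein-coding genes and coloured points with SE bars for the members. The members lie along the falling band of all genes and mostly in its upper part, from Ndufa2 and Ndufb11 at the short end to Ndufs4 at the long end.

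The level of a member depended on the length by which it was divided. On the deposited scale, per kilobase of all annotated exons, the tested members averaged between 1.61 FPKM (Ndufb2) and 67.6 FPKM (Ndufb9). Ndufb9, Ndufa7 and Ndufa6 were the most abundant, and Ndufb2, Ndufa4l2, Ndufb8, Ndufab1 and Ndufa11 the least. Ndufb2 has 4371 bases of annotated exon and a principal transcript of 455 bases. Divided by the principal transcript it averaged 15.2 on the same per-kilobase scale, in place of 1.61. Ndufa11 went from 8.78 to 42.2 on this scale and Ndufb8 from 7.65 to 23.7. Ndufa4 became the most abundant member, with 68.7 against 61.6 for Ndufb9. Reads of all exons were counted in both scales, so for Ndufb2, Ndufa11 and Ndufb8 the second value is an upper estimate for the principal transcript. In Ndufb2 and Ndufb8 other genes on the same strand cover 37.2% and 62% of the span. These levels compare genes and leave the fold changes between groups as they are.

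**Figure D5:**
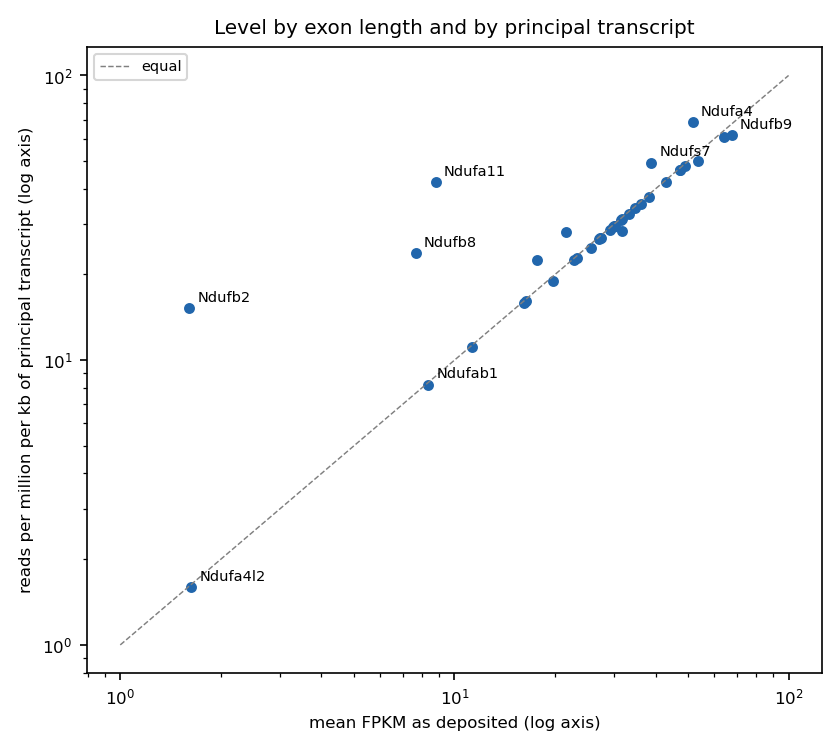
Mean level of each tested member over the 6 libraries, as deposited FPKM on the horizontal log axis and per kilobase of principal transcript on the vertical log axis, with a dashed line of equal values. Most members lie on the line, while Ndufb2, Ndufa11 and Ndufb8 lie well above it.

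The partners of these subunits were read from lists of the 7 mitochondrial subunit genes, 15 assembly factors and 9 regulators. The mitochondrial genes complete the core of the membrane arm, and 6 of the 7 were tested. All 6 had a fold change above 0, with a median of 0.45, and limma called 0 (0 at an unadjusted p under 0.05). With the trend on gene span removed 3 of the 6 were above 0 with a median of 0.0014, and with quantile normalization 4 of the 6 with a median of 0.10. Without mCherry 3 the median was 0.68 and limma called 1 of them, mt-Nd6, higher (0.91), in a fit that called 0.718% of all genes higher. That call rests on leaving out 1 control library. Mouse mt-Nd6, of smallest p, stood at 140.6, 128.1 and 261.5 FPKM in mCherry and 260.0, 266.2 and 230.9 in hND6, so that mCherry 3 again lay with the hND6 libraries. Its fold change was 0.59 ± 0.27 with a limma adjusted p of 0.368. The assembly factors build the complex and are not part of it. Of 15, 7 had a fold change above 0 and 8 below, with a median of -0.03 and 0 limma calls. At an unadjusted limma p under 0.05, 1 was higher, beside 9.11% of all genes, and 4 were lower, beside 6.05%. Without mCherry 3 the median of the 15 was 0.06. With each library scaled to the same sum of FPKM 2 of the 15 were above 0 with a median of -0.15, and with the trend on gene span removed 3 with a median of -0.08. In 5 of them every hND6 library was below every mCherry library, beside 10.2% of all genes, and the one of smallest p, Ndufaf5, stood at 23.3, 21.1 and 24.4 FPKM in mCherry and 20.2, 14.9 and 15.5 in hND6 (-0.44 ± 0.13, limma adjusted p of 0.243). Of the 9 transcription factors and coactivators of nuclear respiratory genes 2 were above 0 and 7 below, with a median of -0.07 and 0 limma calls. At an unadjusted limma p under 0.05, 1 was lower, beside 6.05% of all genes. On the constant-sum scale 0 of the 9 were above 0, with a median of -0.21. With the trend on gene span removed 2 of the 9 were above 0, with a median of -0.07. Gabpb1, a subunit of the factor that binds the ETS/GABP motif, had the smallest p, with 8.09, 8.77 and 8.42 FPKM in mCherry and 6.74, 6.84 and 6.40 in hND6 (-0.32 ± 0.09, limma adjusted p of 0.21).

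Scaling changed the share of members above 0 and no call. With each library scaled to the same sum of FPKM, the median of all genes moved to -0.14, and 5019 of all 16157 genes tested were above 0. Of the 37 members 29 were above 0, with a median of 0.11. Relative to all genes the members' median was thus 0.26 higher on the deposited scale and 0.25 higher on that one. Ndufa9, Ndufa10, Ndufab1, Ndufb4, Ndufb5, Ndufs1, Ndufs4 and Ndufv2 were below 0 on that scale. Ndufs4 was below 0 and Ndufs7, Ndufb7 and Ndufb11 were above 0 under every one of the 21 alternatives.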

How the data were processed

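Ribosome-depleted total RNA of 6 optic nerve libraries was analysed from the authors' deposited FPKM values per gene, with the deposited span and exon length of each gene and, per the labels, 3 libraries a group. STAR and HTSeq, Trim Galore, CASAVA 1.4 and the builds mm10 and GRCm38 are listed in the submitters' processing notes, which do not say how overlapping genes were counted. FPKM times exon length gave whole reads for 100% of values (tolerance 0.1 read). The values were tested as log2(FPKM + 0.5) with limma 3.58.1 in R 4.3.3 (intensity trend, no covariate, Benjamini-Hochberg adjustment, threshold 0.05) over genes averaging at least 0.5 FPKM. A fold change on this scale understates that of low genes. The fit was tested on simulated data. Copies were sought with BLAST 2.17.0 among GENCODE M21 transcripts, from 50% of the principal transcript upward, and called uncertain at 95% identity or more.

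Every member is named but 1, which is not reported here and stays in the counts, sums and medians. Values in every library are given for the other core genes, the 6 members of smallest p, the 3 of largest and 3 of smallest fold change, the 3 most abundant, those under the filter, and Ndufa4 with Ndufa4l2. The members, lists and tests were chosen with earlier results of these data known. Alternatives covered pseudocounts, filters, scalings, variance models, the replicate block, voom on recovered reads, the trend on gene span and libraries left out.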

Additional observations from a re-analysis of the deposited data

How the results depend on the processing

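The count of complex I genes called was 0 in each direction under every alternative except leaving out mCherry 3 alone, and over the single libraries left out it ranged from 0 to 8 higher. Over all genes, the 7 called higher became 1 with no filter on low values, 0 by voom on recovered reads, 1 without mCherry 3 and hND6 1, 0 without mCherry 3 and hND6 2, and 0 to 116 over single libraries left out. The 0 called lower became 1 with the span trend removed and 0 to 15 over single libraries left out, with 15 reached without mCherry 3. The median of all members was 0.412 without mCherry 3 and hND6 1, that of the core genes 0.0498 with the span trend removed, and that of the accessory genes 0.207 to 0.434 over single libraries left out.

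Of the 37 members 27 kept their sign in all 21 alternatives. On the constant-sum scale it changed for Ndufa9 (-0.122), Ndufa10 (-0.0248), Ndufab1 (-0.079), Ndufb4 (-0.1), Ndufs1 (-0.125) and Ndufv2 (-0.0697), and with quantile normalization for Ndufa9 (-0.00146). With the span trend removed it changed for Ndufa4l2 (-0.1), Ndufb4 (-0.113), Ndufs8 (-0.0425) and Ndufv1 (-0.0473). Ndufb5 turned to 0.0292 with library weights, 0.0755 without mCherry 3 and hND6 1, and 0.122 without mCherry 3 and hND6 2. Over single libraries left out, Ndufa9 ranged from -0.0728 to 0.132, Ndufb4 from -0.0748 to 0.107, Ndufb5 from -0.18 to 0.117, Ndufs1 from -0.0216 to 0.0657, and Ndufv2 from -0.0403 to 0.26. The cause was not tested.

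The groups share replicate numbers only. Deviations of same-numbered libraries correlated at -0.416, 0.363 and -0.197 over genes, and only number 2 correlated best with its own. With the replicate block the count of all genes called higher was 0 in place of 7, and 0 members were called. At an unadjusted limma p under 0.05 the block gave 13 members higher in place of 11. Over all 16157 genes it gave 1188 higher in place of 1472. At the same unadjusted p, 4 members were higher with the span trend removed and 7 on the constant-sum scale. All genes higher were 762 and 544 in those fits. Over single libraries left out, the members higher ranged from 6 without mCherry 1 to 28 without mCherry 3, beside 1418 and 1821 of all genes. The lowest depth among tested members was that of Ndufa4l2, at 25 to 66 reads per library.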

Other observations

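Members differed in how closely they followed the rest of the set over the 6 libraries. The median correlation of a gene's log values with those of the other members was highest for Ndufa3 (0.899), Ndufc2 (0.894) and Ndufs6 (0.888). It was lowest for Ndufs4 (-0.563), Ndufa4l2 (0.289), Ndufb4 (0.352) and Ndufb5 (0.47). These are descriptions over 6 shared libraries. Median fold changes of members with and without a promoter match were 0.313 and 0.229 for NRF-1, 0.362 and 0.229 for ETS/GABP, and 0.153 and 0.257 for CRE. The library mCherry 3 held the highest level of all 6 for 4 of the 7 core genes (Ndufs1, Ndufs3, Ndufs8 and Ndufv2). Over all 16157 genes tested it held the highest level of all 6 for 3324.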
